A study of Mus musculus with 9 samples.

Results

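The enteric nervous system of the mouse colon was followed through 8 genes chosen by name: the receptor gene Ret, the neuronal genes Elavl4 and Uchl1, the transmitter genes Nos1, Vip and Tac1, and the glial genes Sox10 and Gfap. All 8 were among the 21498 gene symbols measured, and all 8 were among the 15278 genes with enough signal to be tested. Sox10, Elavl4 and Nos1 had their lowest means in mice given AOM/DSS, a carcinogen and a colitis agent, with control IgG, and were 3.09-, 3.48- and 4.31-fold higher in mice given AOM/DSS with an antibody to S100a9, with no overlap between the 3 mice of each group. Over all tested genes, the mice given this antibody all lay above the IgG-treated mice in 18.5% and all below in 28.5%. Ret showed the opposite order, with its highest values in the IgG-treated mice, but this difference did not pass the test over all genes. Vip and Tac1 varied widely among the IgG-treated mice, as did Elavl4 and Nos1. No difference in Vip, Tac1 or Uchl1 passed with all mice. One IgG-treated mouse held the lowest value of all 9 mice for 6 of the 8 genes, and the differences that rest on the IgG group are given with and without it. Of Sox10, Elavl4 and Nos1, only Sox10 still passed without this mouse. None of these 3 genes passed when any single mouse given the antibody to S100a9 was left out.

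Enteric neurons and glia arise from neural crest cells that migrate into the gut, and they lie mainly in a plexus between the muscle layers and another in the submucosa. Ret is the receptor tyrosine kinase through which GDNF family ligands act on these cells, and loss of its function leaves gut without ganglia. Inhibitory motor neurons relax gut muscle with nitric oxide, made by the product of Nos1, and with the peptide encoded by Vip, whereas excitatory motor neurons release acetylcholine and the tachykinins encoded by Tac1. Elavl4 encodes the neuronal RNA-binding protein HuD, and Uchl1 encodes the ubiquitin hydrolase also known as PGP9.5, a common stain for enteric nerves. Sox10 encodes a transcription factor of crest progenitors and glia, and Gfap encodes an intermediate filament of glia.

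The samples came from 9 male mice of the outbred ICR strain, entered at 5 weeks of age and divided into 3 groups of 3. Control mice received neither carcinogen, colitis agent nor antibody, and their samples are labelled as normal mucosa. The IgG and anti-A9 groups both received 1 intraperitoneal injection of the carcinogen azoxymethane (AOM, 10 mg/kg) and then 3 cycles of dextran sulfate sodium (DSS) in the drinking water, at 2% for 7 days, 1.5% for 5 days and 1.5% for 5 days, and their samples are labelled as colorectal adenocarcinoma. During the DSS cycles they were injected into a vein on alternate days with 1.5 mg/kg of a negative control IgG (IgG group) or of the anti-S100a9 antibody (anti-A9 group), and they were killed at the end of week 18. Tissue type, AOM/DSS and antibody injection all differ between Control and the other groups and cannot be told apart in comparisons with Control. The antibody binds a protein, so no gene of the study was deleted that could check the labels.

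Values are FPKM (fragments per kilobase of transcript, scaled to the mapped fragments of the sample), a level per length. Fold changes are on the log2(FPKM + 0.1) scale, which understates the change of low genes, and adjusted p values come from a limma fit to all 15278 genes in all 9 samples. The files give no counts, so the depth behind a value is unknown. Some symbols had unusually low values: Gapdh, the reference gene of the study's PCR, ranged from 0.156 to 0.755 FPKM, beside Actb at 795.8 to 1089. The neuronal gene Tubb3 was at 0 in all 9 mice. The cause was not tested, and other symbols can be affected. Replicate profiles correlated at 0.917 to 0.97 within groups and at 0.839 to 0.972 between groups. Although the Control samples are labelled mucosa, smooth muscle markers were high in every sample: Myh11, the smooth muscle myosin heavy chain, ranged from 34.6 to 372.5 FPKM, and the 10 muscle markers together summed to between 551.7 and 4293 FPKM. IgG replicate 1 stood apart. It held the lowest value of the 9 samples for 6 of the 8 genes and for 10 of 10 muscle markers, against 19.3% of all tested genes.

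In bulk tissue, fewer cells of a type and less RNA per cell cannot be told apart, and this holds for each difference below. Ordered by their mean over the Control mice, Vip (29.7 ± 8.80 FPKM, SD, n = 3) and Uchl1 (13.0 ± 6.97) stood highest, followed by Tac1 (6.28 ± 0.978). Sox10 (1.51 ± 0.348) and Ret (1.36 ± 0.427) did not differ beyond their spread, and neither did Nos1 (0.880 ± 0.573), Gfap (0.637 ± 0.262) and Elavl4 (0.594 ± 0.351). The plot of values by mouse shows the small spread of the anti-A9 group, in which the highest mouse was 1.21 to 1.73 times the lowest for each gene, and the wide spread of the IgG group, in which this ratio ran from 2.51 for Uchl1 to 19.5 for Gfap.

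**Figure D1:**
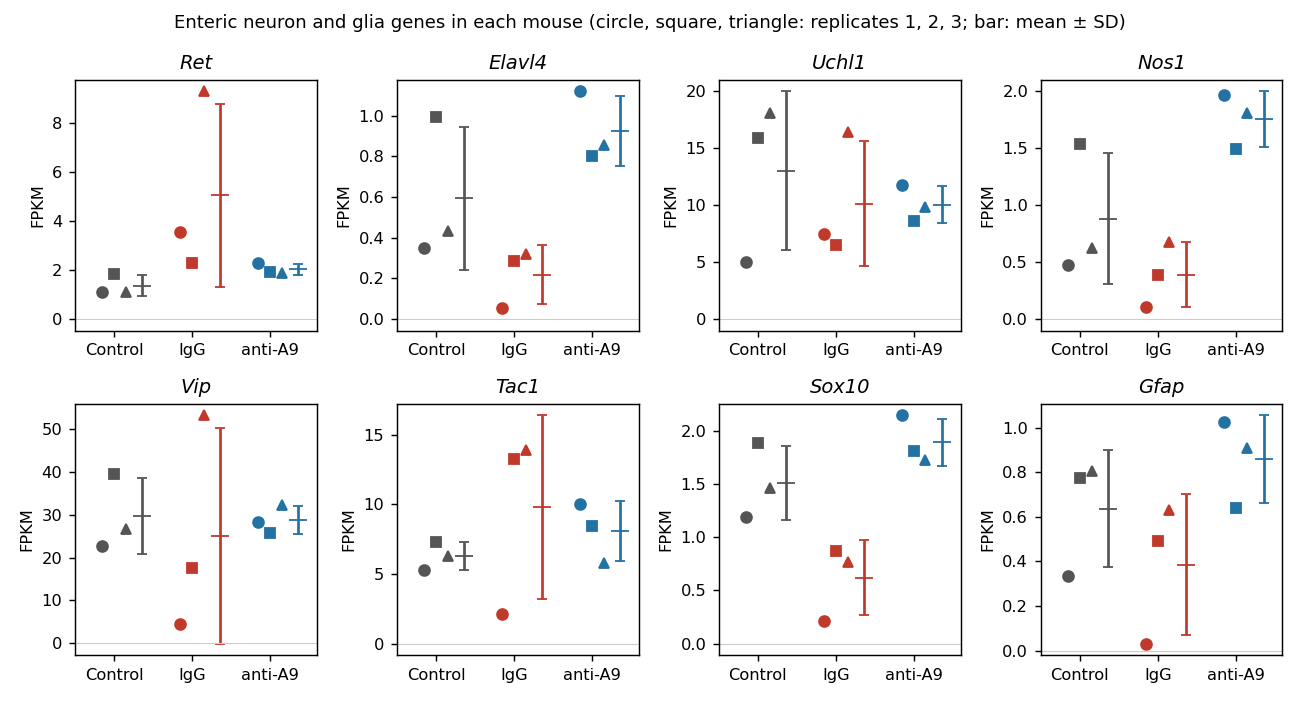
FPKM of each of the 8 genes (linear axes) in the 3 Control, 3 IgG and 3 anti-A9 mice, with circles, squares and triangles for replicates 1, 2 and 3 and a bar for the mean ± SD. For Sox10, Elavl4 and Nos1 all anti-A9 mice lie above all IgG mice, and IgG replicate 1 is the lowest point for 6 of the 8 genes.

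Both glial genes had their lowest mean in the IgG group. Sox10 was at 1.19, 1.88 and 1.46 FPKM in Control replicates 1, 2 and 3, at 0.215, 0.867 and 0.769 FPKM in the IgG mice, and at 2.14, 1.81 and 1.72 FPKM in the anti-A9 mice. All 3 IgG mice lay below all Control and all anti-A9 mice, while Control and anti-A9 overlapped. Over all tested genes, all IgG mice lay below all Control mice in 10.2% and below all anti-A9 mice in 18.5%. Of the 8 genes, 2 lay below all Control mice in this way (Sox10 and Elavl4) and 4 below all anti-A9 mice. For Sox10 the difference between IgG and Control was -1.31 ± 0.42 (log2 fold change ± SE, 95% interval -2.25 to -0.36). It missed the threshold in the limma fit, with an adjusted p of 0.078. This limma difference was -0.79 without IgG replicate 1 (adjusted p 0.099) and -1.60 without IgG replicate 2 (adjusted p 0.044), with adjusted p from 0.044 to 0.208 over all alternatives. The difference between anti-A9 and IgG was 1.63 ± 0.42 and passed in the limma fit, with an adjusted p of 0.029, or 1.11 and 0.034 without IgG replicate 1. Gfap, the other glial gene, was at 0.335, 0.772 and 0.803 FPKM in the Control mice, at 0.0324, 0.494 and 0.633 FPKM in the IgG mice and at 1.02, 0.641 and 0.908 FPKM in the anti-A9 mice. The anti-A9 mice again lay above the IgG mice, but the gap between the lowest anti-A9 mouse and the highest IgG mouse was narrow, and Control overlapped both groups. The difference between anti-A9 and IgG was 1.29 ± 0.62 for Gfap, with an limma adjusted p of 0.155, and was 0.52 without IgG replicate 1. In IgG against Control Gfap gave -0.86 ± 0.62 with all mice and -0.09 without IgG replicate 1.

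Of the neuronal genes, Elavl4 passed the test between anti-A9 and IgG and Uchl1 did not. Elavl4 was at 0.352, 0.996 and 0.433 FPKM in the Control mice, at 0.0548, 0.284 and 0.320 FPKM in the IgG mice, and at 1.12, 0.801 and 0.854 FPKM in the anti-A9 mice. The IgG mice lay below all others, and Control replicate 2 lay among the anti-A9 mice. Elavl4 was 1.80 ± 0.47 higher in anti-A9 than in IgG on the log2 scale (limma adjusted p = 0.030), and 1.13 ± 0.47 separated IgG from Control in the other direction (limma adjusted p = 0.146). These differences were 1.34 and -0.68 for Elavl4 without IgG replicate 1, and neither passed. Uchl1 was at 5.05, 15.9 and 18.0 FPKM in the Control mice, at 7.46, 6.53 and 16.4 FPKM in the IgG mice, and at 11.8, 8.56 and 9.81 FPKM in the anti-A9 mice. These ranges overlapped throughout, and the lowest value was in a Control mouse. The interval for anti-A9 against IgG ran from -1.03 to 1.23 for Uchl1, so a change of 2-fold either way was within it. Uchl1 gave -0.28 in IgG against Control, and -0.13 and -0.06 in IgG against Control and anti-A9 against IgG without IgG replicate 1. In the GENCODE annotation of the GRCm38 build, Uchl1 lies on chromosome 5 from 66676091 to 66687234 on the plus strand and shares 295 of its exon bases (18.1%) with the antisense gene Uchl1os; whether counting used strand is not given in the sources used here, so the reads of both cannot be told apart.

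Of the transmitter genes, Nos1 passed the test between anti-A9 and IgG, and Vip and Tac1 did not. Nos1 was at 0.477, 1.54 and 0.628 FPKM in the Control mice, at 0.108, 0.384 and 0.675 FPKM in the IgG mice, and at 1.97, 1.49 and 1.81 FPKM in the anti-A9 mice. All anti-A9 mice lay above all IgG mice, while IgG replicate 3 lay above Control replicates 1 and 3. Nos1 was 2.11 ± 0.53 higher in anti-A9 than in IgG on the log2 scale (limma adjusted p = 0.027), whereas IgG against Control gave -1.04 ± 0.53 (limma adjusted p = 0.223). Nos1 gave 1.59 and -0.53 without IgG replicate 1, and neither passed. Nos1 shares 268 exon bases (2.4%) with the antisense gene Gm26995, with the same limit on strand.

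Vip was at 22.8, 39.6 and 26.6 FPKM in the Control mice, at 4.55, 17.6 and 53.1 FPKM in the IgG mice, and at 28.3, 25.8 and 32.2 FPKM in the anti-A9 mice. The IgG group held both the lowest and the highest of the 9 values, and every comparison overlapped. Tac1 was at 5.31, 7.27 and 6.25 FPKM in the Control mice, at 2.15, 13.3 and 13.9 FPKM in the IgG mice, and at 10.0, 8.46 and 5.78 FPKM in the anti-A9 mice. IgG replicate 1 was again the lowest, and IgG replicates 2 and 3 were the highest of all. With all mice, IgG against Control gave 0.24 ± 0.62 for Tac1 (limma adjusted p = 0.824) and -0.82 ± 0.71 for Vip (limma adjusted p = 0.472). Without IgG replicate 1, Tac1 was 1.11 higher in IgG than in Control on the log2 scale, with an limma adjusted p of 0.033, and adjusted values over all alternatives ran from 0.033 to 0.931, so the result turns on this mouse. Without it Vip gave 0.08 in IgG against Control and -0.09 in anti-A9 against IgG, against 0.81 ± 0.71 with all mice, and Tac1 gave -0.78 in anti-A9 against IgG, against 0.09 ± 0.62 with all mice.

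Across the 9 samples, which share the 3 groups, Elavl4 correlated with Nos1 at a Pearson r of 0.982, and Vip with Tac1 at 0.742. Vip correlated more closely with Gfap (0.879), Sox10 (0.752) and Nos1 (0.749). Vip is a classic target of cyclic AMP through the factor CREB. The promoters of Elavl4, Nos1, Vip and Tac1 are therefore shown for the sites that answer this signal. These are the 4 genes that hold the motif marked below, and the windows of Uchl1 and Gfap, which hold none, are not shown. The windows hold 250 bases before and 50 bases after the RefSeq start site on GRCm38.p6, in the direction of the gene, and capitals mark TGACG or its reverse complement CGTCA, the core of the cyclic AMP response element, searched on both strands. Elavl4 has 4 annotated start sites, of which the first is shown (chr4:110351862-110352161, minus strand). The Nos1 window is chr5:117866589-117866888 (plus strand), the Vip window is chr10:5638968-5639267 (plus strand) and the Tac1 window is chr6:7554811-7555110 (plus strand). In GENCODE Nos1 spans 117781032 to 117958840 on chromosome 5, so the start site of its window lies within the gene.
Elavl4: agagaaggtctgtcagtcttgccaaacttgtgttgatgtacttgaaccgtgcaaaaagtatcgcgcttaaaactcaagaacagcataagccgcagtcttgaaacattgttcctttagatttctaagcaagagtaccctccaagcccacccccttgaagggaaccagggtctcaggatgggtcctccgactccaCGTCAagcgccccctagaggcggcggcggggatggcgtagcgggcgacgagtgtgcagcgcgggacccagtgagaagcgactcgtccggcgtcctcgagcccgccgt
Nos1: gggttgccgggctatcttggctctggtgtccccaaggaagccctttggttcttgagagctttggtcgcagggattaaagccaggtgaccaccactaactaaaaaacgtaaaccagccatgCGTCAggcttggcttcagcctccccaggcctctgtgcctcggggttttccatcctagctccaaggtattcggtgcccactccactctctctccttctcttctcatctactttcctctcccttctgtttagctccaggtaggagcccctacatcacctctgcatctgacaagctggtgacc
Vip: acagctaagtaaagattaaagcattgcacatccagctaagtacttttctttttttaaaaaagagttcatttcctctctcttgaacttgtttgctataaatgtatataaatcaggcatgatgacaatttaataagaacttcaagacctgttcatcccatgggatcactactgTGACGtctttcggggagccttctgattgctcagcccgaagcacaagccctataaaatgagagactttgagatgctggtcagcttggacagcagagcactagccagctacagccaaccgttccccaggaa
Tac1: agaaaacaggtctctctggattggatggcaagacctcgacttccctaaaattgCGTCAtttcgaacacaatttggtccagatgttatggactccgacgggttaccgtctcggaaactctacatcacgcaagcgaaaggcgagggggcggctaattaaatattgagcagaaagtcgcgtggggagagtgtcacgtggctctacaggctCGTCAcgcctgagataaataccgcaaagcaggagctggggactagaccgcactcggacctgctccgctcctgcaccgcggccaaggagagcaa
The motif stands at -57 in Elavl4, at -130 in Nos1, at -79 in Vip, and at both -197 and -43 in Tac1, counted from the start site to the first base of the match. Of the 6 genes with a window in the table (Elavl4, Uchl1, Nos1, Vip, Tac1 and Gfap), 4 hold a match in any of their windows, against 23% of 27025 genes counted in the same way. By window it was 6 of 9, of which 2 are overlapping Elavl4 windows with the same match, against 20.8% of 32851 windows of 300 bases. A match is a description of these letters only, and the genes that hold one include Elavl4 and Nos1, which passed the test between anti-A9 and IgG, as well as Vip and Tac1, which did not.

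Ret had its highest mean in the IgG group. It was at 1.10, 1.85 and 1.12 FPKM in the Control mice, at 3.56, 2.31 and 9.31 FPKM in the IgG mice, and at 2.29, 1.92 and 1.89 FPKM in the anti-A9 mice. Each IgG mouse lay above every Control and every anti-A9 mouse, and each anti-A9 mouse lay above every Control mouse, by a small margin at IgG replicate 2 and at Control replicate 2. Over all tested genes, all IgG mice lay above all Control mice in 20.7%, and all anti-A9 mice above all Control mice in 17.3%. All anti-A9 mice lay below all IgG mice in 28.5%. Ret was 1.62 ± 0.46 higher in IgG than in Control on the log2 scale (95% interval 0.59 to 2.65), with an unadjusted p of 0.0063 and an adjusted p of 0.053 in the limma fit. It was -1.04 ± 0.46 in anti-A9 against IgG (limma adjusted p = 0.126). Leaving out IgG replicate 1 gave 1.75 and -1.17 for Ret, and neither passed. Without IgG replicate 2, the nearest to the other groups, both passed, at limma adjusted p of 0.017 and 0.040, while over all alternatives these adjusted values ran from 0.017 to 0.142 and from 0.040 to 0.303. Ret is also known from cells outside the nervous system of the gut, such as innate lymphoid cells, and which cells gave these reads was not tested.

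Taking the 8 genes together, none passed at an adjusted p under 0.05 in IgG against Control, where the limma fit called 8.18% of all tested genes higher and 3.01% lower. An unadjusted p under 0.05 was reached by 3 of them and by 4507 genes in all. By the thresholds used in the study (unadjusted p under 0.05 and more than 2-fold), Ret was higher and Sox10 and Elavl4 were lower, against 8.43% of all genes called higher and 5.19% called lower. The median over the 8 genes was -0.84 on the log2 scale, beside 0.09 for all tested genes, and it was -0.11 without IgG replicate 1 and -1.36 without IgG replicate 3. Median-of-ratios scaling and quantile normalization moved the median of all genes by -0.103 and -0.124 in this comparison.

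In anti-A9 against IgG, 3 of the 8 genes were called higher (Nos1, Elavl4 and Sox10) and none lower, where 6.72% of all tested genes were called higher and 14.4% lower. The study's thresholds called the same 3 genes higher and Ret lower, beside 7.64% and 8.38% of all genes. The median over the 8 genes was 1.05, beside -0.06 for all tested genes, and it was 0.23 without IgG replicate 1 and 1.71 without IgG replicate 3. IgG against Control and anti-A9 against IgG, both in the plot of fitted changes, rest on the same 3 IgG mice. A low value in an IgG mouse therefore enters both with opposite sign. These calls depended on single mice. Without IgG replicate 1 only Sox10 stayed past the threshold (1.11, limma adjusted p = 0.034), while Nos1 (1.59, limma adjusted p = 0.059) and Elavl4 (1.34, limma adjusted p = 0.063) missed it. Without anti-A9 replicate 1, 2 or 3 none of the 3 passed, and genes called higher in all went from 1026 to 166, 92 and 272. Over every alternative the adjusted p ran from 0.021 to 0.086 for Nos1, from 0.019 to 0.094 for Sox10 and from 0.025 to 0.099 for Elavl4, with the difference positive in each.

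**Figure D2:**
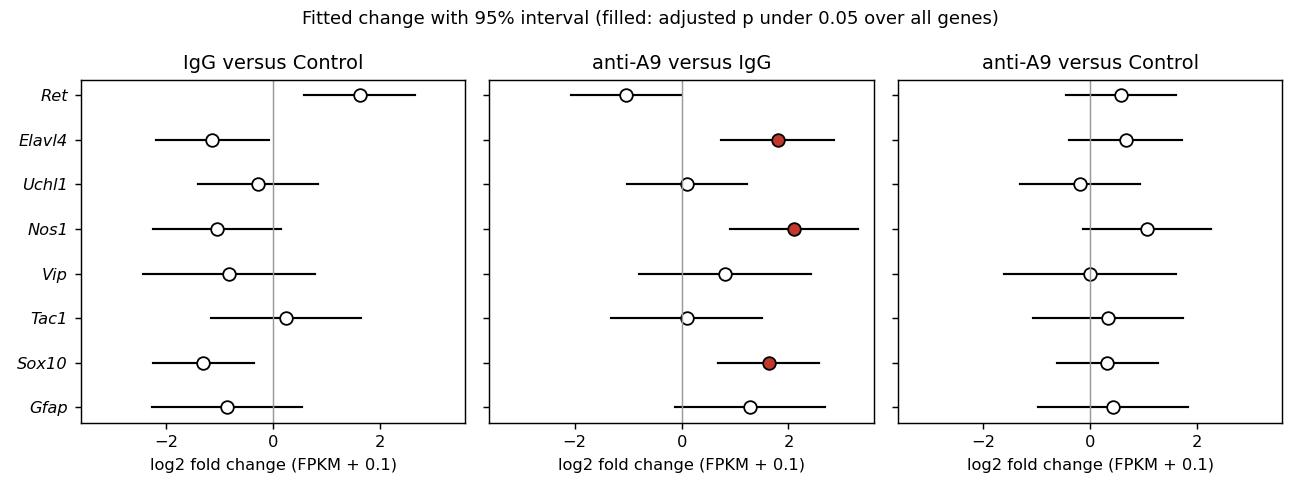
Fitted log2 fold change of FPKM + 0.1 (horizontal axis) with its 95% interval for each of the 8 genes in the 3 comparisons, with filled points where the adjusted p over all genes is under 0.05. Filled points appear for Elavl4, Nos1 and Sox10 in anti-A9 against IgG, at 1.80, 2.11 and 1.63, and in no other panel.

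Between anti-A9 and Control no difference in the 8 genes passed (limma adjusted p 0.344 to 0.997), and the limma fit called 0.00655% of all tested genes higher and 0.00655% lower, or 1 gene each way, although 2439 genes had an unadjusted p under 0.05. Nos1 showed the widest difference, 1.06 ± 0.53, with an interval from -0.13 to 2.26. For Vip the interval ran from -1.62 to 1.60 and for Sox10 from -0.62 to 1.27, so a change of 2-fold either way lay within the first and a rise of 2-fold within the second. None of the 8 genes had an unadjusted p under 0.05 here.

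Of the other 19 pan-neuronal genes reported, 18 were tested, and Tubb3 was at 0 FPKM in all 9 mice. Their calls went in the directions of the Elavl4 differences, of which only that in anti-A9 against IgG passed. In IgG against Control 2 were called lower, Map2, a dendritic microtubule protein (-1.36), and Elavl3, the paralog of Elavl4 (-0.97), and none was called higher, where 3.01% of all tested genes were called lower and 8.18% higher. The next smallest p was that of Syp, a synaptic vesicle protein (-1.09, limma adjusted p = 0.073). The median of the list was -1.17, or -0.49 without IgG replicate 1. In anti-A9 against IgG 3 were called higher, Chrna3, a ganglionic acetylcholine receptor subunit (2.00), Map2 (1.03) and Elavl3 (0.91), beside 6.72% of all tested genes. The median of the list was 1.17, or 0.72 without IgG replicate 1 and 1.78 without IgG replicate 3. Map2 was at 0.885, 1.86 and 0.972 FPKM in the Control mice, at 0.436, 0.398 and 0.362 FPKM in the IgG mice and at 1.01, 0.697 and 1.08 FPKM in the anti-A9 mice. For Map2 and Elavl3 IgG replicate 1 was not the lowest mouse, and the 3 IgG mice lay below all others. All IgG mice lay below all Control mice in 5 of the 18 tested genes of this list, beside 10.2% of all tested genes. The call of Elavl3 in IgG against Control was lost whichever of the 9 mice was left out (limma adjusted p 0.057 to 0.139), and that of Map2 was kept in 6 of 9 (0.042 to 0.093). Without IgG replicate 1 the counts were 1 lower (Map2, -1.41) and 1 higher (Chrna3, 1.47). Without Control replicate 1 or 3 or IgG replicate 2 the count lower was 1, without Control replicate 2 none was called lower, without anti-A9 replicate 1 none was called in either comparison, and without anti-A9 replicate 2 or 3 none was called higher and 1 was called lower. Calls over all genes moved too with 1 mouse left out, from 82 to 793 lower in IgG against Control and from 92 to 1444 higher in anti-A9 against IgG.

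Among 11 other glial genes reported, none was called in IgG against Control, where the median was -0.64, or -0.25 without IgG replicate 1. The smallest p values there belonged to Gpm6b (0.85), Erbb3 (-0.65) and S100b (-1.24). In anti-A9 against IgG 4 were called higher, beside 6.72% of all tested genes: Scn7a, a sodium channel of glia (1.85), Cdh19, a cadherin of the crest glial lineage (2.30), Col28a1, a collagen of nerves (1.49), and Erbb3, the neuregulin receptor, which colon epithelium also makes (0.82). Without IgG replicate 1 only Scn7a passed (1.50, limma adjusted p = 0.030, and 0.0095 to 0.058 over all alternatives), and without anti-A9 replicate 1, 2 or 3 the count was 0, 0 and 2. In IgG against Control 1 was called lower without Control replicate 3 and 1 without IgG replicate 2. Scn7a was at 2.09, 3.35 and 1.56 FPKM in the Control mice, at 0.738, 1.88 and 1.39 FPKM in the IgG mice and at 5.37, 4.81 and 4.21 FPKM in the anti-A9 mice, which lay above all 6 others.

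**Figure D3:**
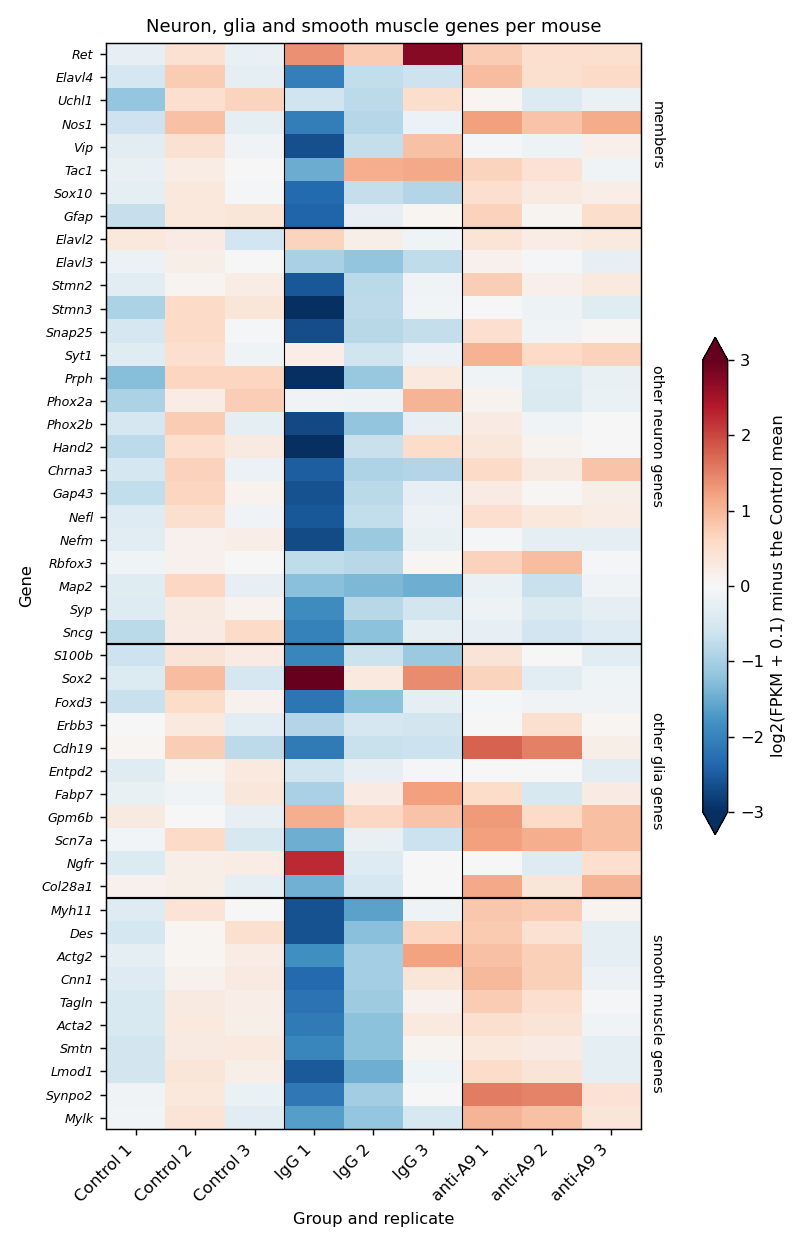
Difference of log2(FPKM + 0.1) from the Control mean (color, held at -3 and 3) for the 8 genes, 18 other neuronal, 11 other glial and 10 smooth muscle genes (rows) in the 9 mice (columns). IgG replicate 1 is the lowest of the 9 in 12 of the 18 neuronal, 8 of the 11 glial and all 10 muscle rows. In IgG replicate 3 the median difference is 0.298 for the 8 genes, -0.201 for the neuronal, -0.0299 for the glial and 0.0979 for the muscle rows. Sox10, Elavl3 and Map2 are among the rows below the Control level in that mouse.

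Of 17 other genes of transmitters and neuropeptides, 14 were tested. Npy, a peptide of enteric and sympathetic neurons, was at 2.19, 4.47 and 3.53 FPKM in the Control mice, at 19.2, 17.2 and 22.1 FPKM in the IgG mice, and at 1.97, 2.95 and 1.75 FPKM in the anti-A9 mice. All 3 IgG mice lay far above the other 6. Npy was 2.54 ± 0.29 higher in IgG than in Control (limma adjusted p = 0.0017) and -3.10 ± 0.29 in anti-A9 against IgG (limma adjusted p = 0.0016), and it passed in both under every alternative. Over all tested genes 8.18% were called higher in IgG than in Control and 14.4% lower in anti-A9 than in IgG. The only other calls in this list were Slc5a7, the choline transporter of cholinergic neurons (1.66), and Ache, acetylcholinesterase (1.24). Both were higher in anti-A9 than in IgG, where 6.72% of all tested genes were called higher. Without IgG replicate 1 Ache passed (0.78, limma adjusted p = 0.038) and Slc5a7 did not (1.32, limma adjusted p = 0.056). Medians of the list were -0.28 and 0.54.

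Ligands and receptors of the 8 genes were read beside them. Gdnf, the ligand that signals through Ret with Gfra1, was at 0.865, 0.965 and 0.501 FPKM in the Control mice, at 0.349, 0.534 and 0.407 FPKM in the IgG mice and at 1.18, 1.09 and 0.814 FPKM in the anti-A9 mice, and was called higher in anti-A9 than in IgG (1.09, limma adjusted p = 0.036). Nrtn, the ligand that signals with Gfra2, went the other way (-1.46, limma adjusted p = 0.044), from 17.1, 8.75 and 17.2 FPKM in the IgG mice to 7.11, 3.55 and 4.70 FPKM in the anti-A9 mice. Neither passed without IgG replicate 1, at 0.98 (limma adjusted p = 0.079) and -1.30 (limma adjusted p = 0.109). Gfra1 gave 1.00 and Gfra2 gave 1.25 in anti-A9 against IgG, with limma adjusted p of 0.082 and 0.113. Gdnf and Nrtn gave the only 2 calls among 10 tested genes of Ret signaling and of the endothelin pathway, beside 6.72% higher and 14.4% lower over all tested genes. In IgG against Control none was called (Gdnf -0.70, Nrtn 0.53, Gfra1 -0.57, Gfra2 -1.38).

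For the peptides, Vipr1, the VIP receptor abundant in colon, was at 51.7, 57.6 and 44.4 FPKM in the Control mice, at 23.5, 43.3 and 36.0 FPKM in the IgG mice, and at 44.8, 53.1 and 46.6 FPKM in the anti-A9 mice. All IgG mice lay below all others, without a call (-0.61, limma adjusted p = 0.102, and 0.53, limma adjusted p = 0.108). All IgG mice lay below all Control mice in 3 of the 8 tested receptor genes, beside 10.2% of all tested genes. Vipr2 (-0.80 and 0.66) and Tacr1, the substance P receptor (0.63 and 0.36), were not called either. Tacr2, the neurokinin A receptor of gut muscle, was at 5.86, 7.26 and 3.28 FPKM in the Control mice, at 0.373, 1.73 and 2.58 FPKM in the IgG mice, and at 10.4, 13.7 and 6.71 FPKM in the anti-A9 mice. It was 2.91 ± 0.61 higher in anti-A9 than in IgG (limma adjusted p = 0.017) and stayed so without IgG replicate 1 (2.17, limma adjusted p = 0.020). Gucy1a3 and Gucy1b3, subunits of the guanylate cyclase that senses nitric oxide, were called higher by 1.71 and 1.12, and Prkg1, the kinase downstream, by 2.6. Gucy1a3 was also the 1 receptor gene called lower in IgG than in Control (-1.29, limma adjusted p = 0.037), beside 3.01% of all tested genes. This count was 3 without Control replicate 3 or IgG replicate 3, 2 without IgG replicate 2 and 0 without any of the other 6 mice. Calls over all genes ran from 82 to 793 lower with 1 mouse left out. In all, 4 of the 8 tested receptor genes were called higher and none lower in anti-A9 against IgG, beside 6.72% and 14.4% of all tested genes. The count higher was 3 without IgG replicate 1 and 1, 0 and 3 without anti-A9 replicates 1, 2 and 3.

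Muscle markers varied along with several of the 8 genes. The 10 smooth muscle markers summed to 1903, 3010 and 2987 FPKM in the Control mice, to 551.7, 1141 and 3365 FPKM in the IgG mice, and to 4293, 3730 and 2379 FPKM in the anti-A9 mice. None was called in IgG against Control (median -1.06), and in anti-A9 against IgG 3 were called higher, Mylk (1.85), Synpo2 (2.22) and Myh11 (2.01), with a median of 1.48, beside 6.72% of all tested genes called higher. These counts turned on IgG replicate 3: without it 5 of the 10 were called lower in IgG than in Control and 10 higher in anti-A9 than in IgG, beside 2.17% and 3.38% of all tested genes under the same setting, with medians of -1.66 and 2.17. The medians were -0.49 and 0.86 without IgG replicate 1. Without anti-A9 replicate 1 or 2, 1 was called higher. Across the 9 samples, which share the 3 groups, the mean log2 level of the muscle markers correlated with Nos1 at 0.888, with Sox10 at 0.885, with Elavl4 at 0.88, with Gfap at 0.875 and with Vip at 0.845. It correlated with Tac1 at 0.578, with Uchl1 at 0.518 and with Ret at -0.144. The mean of the enteroendocrine markers correlated with Vip at 0.817, Gfap at 0.74, Tac1 at 0.684 and Sox10 at 0.634. For Elavl4, Nos1, Uchl1 and Ret that correlation was 0.462, 0.41, 0.382 and -0.236. In IgG replicate 3 muscle markers were near or above the Control level, with 4 of 10 above the Control range and 1 below it, while Sox10 (0.769 FPKM) and Elavl4 (0.320 FPKM) in that mouse stayed below the Control range. Of the other 6 genes in that mouse, Uchl1, Nos1 and Gfap lay within the Control range and Ret, Vip and Tac1 above it. The part of muscle content in the differences of the 8 genes was not tested.

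**Figure D4:**
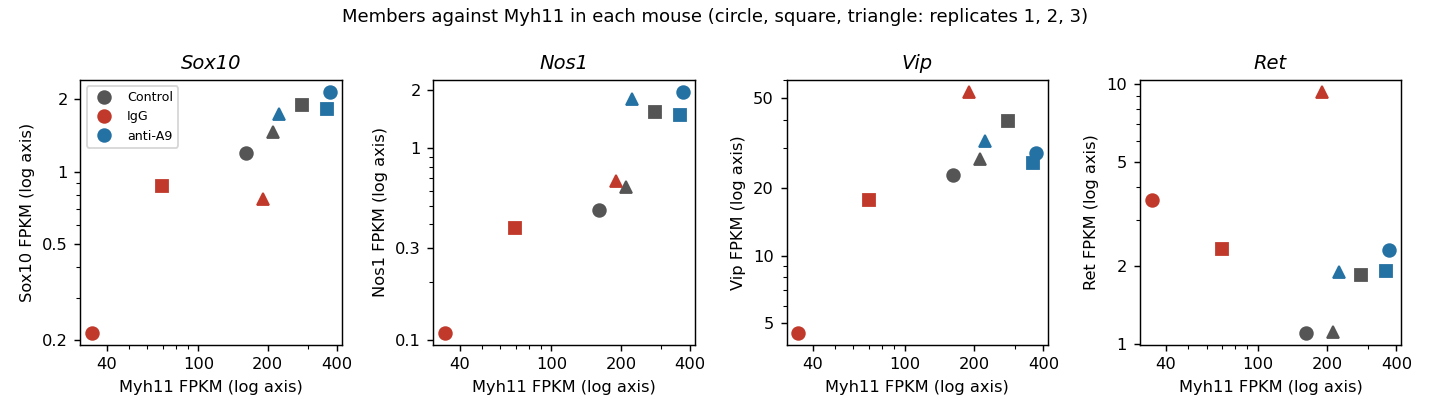
FPKM of Sox10, Nos1, Vip and Ret (vertical) against FPKM of the muscle gene Myh11 (horizontal), both on log axes, with 1 point per mouse. Sox10, Nos1 and Vip are lowest in IgG replicate 1, which also has the lowest Myh11 (34.6 FPKM), and Ret is highest in the 3 IgG mice. In IgG replicate 3 Sox10 lies below Control replicates 1 and 3, which have a like level of Myh11, while Nos1 and Vip lie above them.

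Other cell types were checked in the same way. Over all tested genes 3.01% were called lower in IgG than in Control and 6.72% higher in anti-A9 than in IgG. In the other directions 8.18% were called higher in IgG than in Control and 14.4% lower in anti-A9 than in IgG. The interstitial cells of Cajal, pacemakers of gut muscle, gave 1 gene lower in IgG than in Control (Ano1, -0.80) and all 3 markers higher in anti-A9 than in IgG (Etv1 1.67, Kit 1.05, Ano1 0.72). Enteroendocrine markers, whose cells share several neuronal genes, gave 1 gene lower in IgG than in Control (Neurod1, -1.90) and none called in anti-A9 against IgG, and their sums were 347.6 to 550 FPKM in Control, 51 to 463.3 FPKM in IgG and 180.2 to 208.9 FPKM in anti-A9. Fat cell markers were called lower in 4 of 4 tested genes in IgG against Control and were summed at 38.3 to 170.1 FPKM in Control, at 0.28 to 15.0 FPKM in IgG and at 0.246 to 1.72 FPKM in anti-A9. Of the mesothelial markers Msln was called higher in IgG than in Control (2.57) and lower in anti-A9 than in IgG (-3.16), with Upk3b and Wt1 not called. The squamous keratin Krt14 did the same (3.66 and -3.30) while Krt5 stayed under 0.5 FPKM in every mouse. Of 5 myelinating Schwann cell markers Pmp22, which other tissues also make, was called higher in anti-A9 than in IgG (1.26). None of the 5 epithelial and 5 leukocyte markers was called in either comparison. Without IgG replicate 1 none of the fat cell and Cajal cell markers was called, Msln was no longer called higher in IgG than in Control, and the enteroendocrine counts were 2 lower and 1 lower. With 1 mouse left out, calls over all genes ran from 82 to 793 lower in IgG against Control. In anti-A9 against IgG they ran from 431 to 2662 lower. Of the listed genes named here, Npy and Mylk kept their calls in anti-A9 against IgG with each of the 9 mice left out in turn. The part of these cells in the differences was not tested.

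The genes most like each of the 8 over the 9 samples were found by Pearson correlation of log2(FPKM + 0.1), as a description. Nos1 and Elavl4 shared the same nearest gene, Slc7a14 (r = 0.996 and 0.989), followed by Syt2 and Slc5a7 for Nos1 and by Kif5a and Syndig1 for Elavl4. Some of these were very low, where the added 0.1 weighs on r: Slc7a14 ran from 0.0207 to 0.651 FPKM, Syt2 from 0.0111 to 0.294 and Slc5a7 from 0.0377 to 0.77. The nearest to Sox10 was Ache (0.99), then Bves and Mapre2, and the nearest to Gfap was C1ql1 (0.982), then Slmo1 and Tbxa2r. Vip was nearest to Scg2 (0.978), then Coro1c and Fkbp5, and Uchl1 to Grp (0.96), then Ppp1r13b and Neurl2. Ret stood with genes of another kind, Lamb1, a laminin chain (0.986), Med15 and Calu, and Tac1 with Pagr1b (0.966, at 8.52e-51 to 1.13 FPKM), Lhx6 and Mest. Among the 8, Sox10 correlated with Elavl4 at 0.961, with Nos1 at 0.915 and with Gfap at 0.906, and Ret with Sox10 at -0.489.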

How the data were processed

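RNA from the colorectum of 9 mice was sequenced by the authors, who deposited 1 table of decimal values per mouse, not counts. These deposited values were read as FPKM, from their form and the tools named in the submitters' processing notes (TopHat, Cufflinks, HTSeq and DESeq on GRCm38, in unstated order and version); the unit is not given in the sources used here, nor is the strand setting. Rows that repeated a symbol were summed (46 of 21544 rows), and a gene was kept where 3 or more samples reached 0.1 FPKM. log2(FPKM + 0.1) was fitted with limma 3.58.1 (R 4.3.3; lmFit, eBayes with an intensity trend) over 3 groups at once, with Benjamini-Hochberg adjustment over the 15278 tested genes and calls at an adjusted p under 0.05. The step was tested on simulated data. Relative depth, from the steps of low values, ran from 0.854 to 1.12 (Control replicate 1 = 1), and total FPKM from 308377 to 408811; the number of mice limits precision. Nothing in the labels pairs the mice, and replicate numbers were not used. The genes and lists were chosen with earlier results of these data known. Named from the lists were the 3 smallest p values in IgG against Control, any gene called in another comparison, and the receptors and ligands of the 8 genes. Likeness was Pearson r over 9 samples. Positions are from GENCODE and promoters from RefSeq (GRCm38.p6). Alternatives covered the pseudocount, the filter, scaling, trend, groups fitted, the study's thresholds, a replicate block and each mouse left out. Some listed genes are not reported here and were left out of the lists.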

Additional observations from a re-analysis of the deposited data

How the results depend on the processing

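Replicate numbers did not pair the mice: deviations of same-numbered mice correlated at -0.187 to 0.249, with 5 of 9 pairs over 0.1, and with the replicate block 3 of the 8 genes were called higher in anti-A9 against IgG; the block changed no other call on the 8 genes. Leaving out each mouse gave 0 to 1 of the 8 genes called higher and 0 to 1 lower in IgG against Control, 0 to 3 higher and 0 to 1 lower in anti-A9 against IgG, and 0 in anti-A9 against Control. Over all genes it gave 513 to 1476 higher and 82 to 793 lower, 92 to 1444 higher and 431 to 2662 lower, and 0 to 4 higher and 0 to 1 lower. The study's thresholds gave 1 of the 8 genes higher and 2 lower in IgG against Control and 1 lower in anti-A9 against IgG; over all genes they gave 793 lower, 1280 lower and, in anti-A9 against Control, 349 higher and 132 lower. Fitting only the groups compared gave 502 higher and 101 lower in IgG against Control, 0 each way in anti-A9 against Control, and moved Sox10 in anti-A9 against IgG to an limma adjusted p of 0.051. In anti-A9 against Control a pseudocount of 0.01 gave 3 genes higher, and no filter or no trend gave 0 lower. Signs turned where differences were small, with 1 mouse left out: in IgG against Control Uchl1 ran from -0.86 to 0.0488, Vip from -1.67 to 0.0845 and Tac1 from -0.206 to 1.11 (-0.174 without IgG replicate 2), in anti-A9 against IgG Uchl1 ran from -0.151 to 0.506, Vip from -0.0935 to 1.66 and Tac1 from -0.776 to 0.542, and in anti-A9 against Control Uchl1 ran from -0.761 to 0.148 and Vip from -0.179 to 0.218. Under quantile normalization Vip also turned there (0.0612). The cause was not tested. Elavl4 and Gfap could not be tested with a minimum of 1 FPKM. Depth is unknown, so genes under 1 FPKM, such as Elavl4, Nos1 and Gfap, carry an unknown counting error.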

Other observations

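Some neuropeptide and progenitor genes were high in a single IgG mouse. Gal, the peptide galanin, was at 75.8 FPKM in IgG replicate 3, against 3.18 and 8.52 FPKM in the other IgG mice and 2.07 to 14.2 FPKM in the Control mice. Cartpt, a peptide of enteric neurons, was at 12.0 FPKM in the same mouse and at 0.366 to 1.43 FPKM in the 8 others. This is the mouse with the highest Ret (9.31 FPKM) and the highest Vip (53.1 FPKM). In IgG replicate 1, which was lowest for 8 of 11 other glial genes, Sox2, a transcription factor of glia that squamous epithelium also makes, was at 15.0 FPKM, against 0.0774 to 0.576 FPKM in the 8 others, and Ngfr, the p75 neurotrophin receptor of glia, was at 10.9 FPKM, against 1.66 to 3.18 FPKM. The same mouse had the highest Krt14, at 37.1 FPKM. None of Gal, Cartpt, Sox2 and Ngfr passed the test between groups (limma adjusted p 0.205 to 0.774 in IgG against Control), and they were named after their values were seen.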
